A study of Mus musculus with 9 samples.

Results

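The 6 transporter genes described here are Slc6a3, Slc18a2, Slc10a4, Slc18b1, Slc29a4 and Slc22a3. These genes are grouped around the uptake of dopamine at the cell surface and its loading into vesicles, though not all are known to carry dopamine. They were taken by symbol from a table of gene expression with 24487 rows, and each symbol matched 1 row. The table holds RNA sequencing of 5 libraries of whole midbrain and 4 libraries of midbrain dopaminergic neurons from C57BL/6 mice, as FPKM (sequenced fragments scaled by transcript length and by library size). Neither group carries a treatment in the labels. Age, sex and any transgene used to reach the neurons were not stated in the sources at hand. The word bacTRAP in the table's title usually stands for a capture of tagged ribosomes, with their RNA, from 1 cell type, but the labels do not describe the isolation. Any effect of the isolation therefore cannot be told apart from that of the cell type. Whether each library is a different animal is not labelled, and p-values therefore measure only library-to-library spread, which may be technical.

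Dopamine released by midbrain neurons is cleared mainly by the dopamine transporter, the product of Slc6a3, which carries it back into the neuron with sodium and chloride. Slc29a4 (the plasma membrane monoamine transporter) and Slc22a3 (organic cation transporter 3) are carriers of low affinity and high capacity found in many cell types, and do not need sodium. Inside the neuron, the vesicular monoamine transporter encoded by Slc18a2 loads dopamine into synaptic vesicles in exchange for protons, which the vesicular proton pump supplies. Slc18b1 is a relative of Slc18a2 that moves polyamines. Slc10a4 belongs to the bile acid carrier family but sits on vesicles of monoamine and acetylcholine neurons, and its substrate is not settled.

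The libraries differed beyond the labels. The FPKM of all rows summed to between 309275 and 313252 in 4 whole midbrain libraries, to 409130 in whole midbrain library 2, and to between 506466 and 521822 in the dopaminergic libraries. Depth, estimated from the smallest values of single-exon genes, was roughly 47.2 to 62.5 megareads in the dopaminergic libraries and was not estimated for whole midbrain. Each of these estimates rests on only 2 genes that agreed within 2 percent, so it is loose. All 9 dopaminergic marker genes (Th, Ddc, Nr4a2, Pitx3, Foxa1, En1, Lmx1b, Drd2 and Ret) rose in the dopaminergic libraries, with a summed level of 2678 to 3087 FPKM against 125 to 145. Of the tested markers of other cells, all 8 of astrocytes, all 7 of oligodendrocytes, all 7 of microglia, all 8 of vessel cells, all 4 of serotonergic neurons, all 4 of GABAergic neurons and both of glutamatergic neurons fell. Of the cholinergic markers 2 of 3 tested fell, and of the ependymal and choroid plexus markers 3 of 4 fell, a count that ran from 1 to 3 without 1 library. Of all genes tested, 36.0 percent fell and 38.3 percent rose. A higher level in bulk RNA can come from more cells of a type or from more RNA per cell, and these cannot be told apart.

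Slc6a3, Slc10a4 and Slc18a2 rose in the dopaminergic libraries by 16.6-fold, 13.9-fold and 5.45-fold. Slc29a4 and Slc18b1 were at nearly the same mean in both groups, near 5.9 and 4.5 FPKM. Slc22a3 was low in both groups and 2.78-fold lower in the dopaminergic libraries. Of the 13106 genes that reached a mean of 1 FPKM over all libraries, 38.3 percent were higher and 36.0 percent lower in the dopaminergic libraries (limma with Benjamini-Hochberg adjustment, threshold 0.05), or 74.2 percent in either direction. Of the 6 transporters 5 reached that mean, and Slc22a3, at 0.75 FPKM over the 9 libraries, did not.

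**Figure D1:**
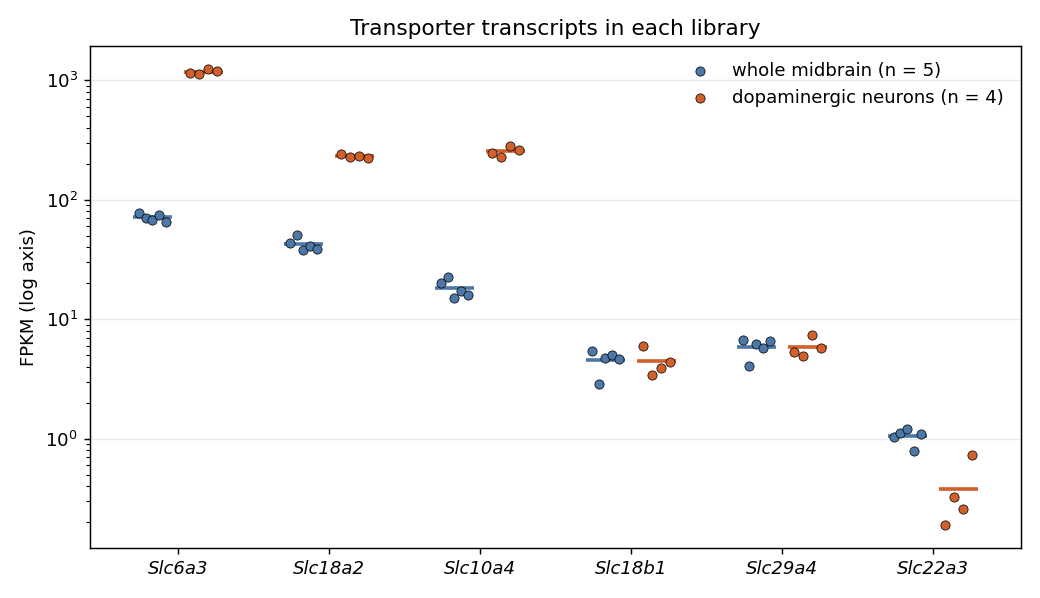
FPKM of the 6 transporters in each library on a log axis, with 1 point per library, whole midbrain (n = 5) beside dopaminergic neurons (n = 4), and a bar at each group mean. The groups are far apart for Slc6a3, Slc10a4 and Slc18a2, overlap for Slc29a4 and Slc18b1, and lie close together without overlap for Slc22a3.

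Slc6a3, the gene of the dopamine transporter (plus strand, chr13:73536747-73578672, mm10), had 77.6, 70.9, 67.9, 74.2 and 64.5 FPKM in whole midbrain libraries 1 to 5. In dopaminergic libraries 1 to 4 it had 1160, 1126, 1248 and 1191 FPKM. All 4 dopaminergic libraries were far above all 5 of whole midbrain, and the values within each group lay close together. Over all genes tested, the groups did not overlap for 64.4 percent, with the dopaminergic libraries higher for 32.6 percent and lower for 31.8 percent. The means were 71.0 ± 5.15 (SD, n = 5) and 1181 ± 51.7 (SD, n = 4) FPKM. On the log2(FPKM + 1) scale the difference was 4.04 with an SE of 0.09, a 95 percent interval of 3.85 to 4.23 and a limma adjusted p of 5.45e-10. That was the 8th largest log2 difference of the 13106 genes tested. In the dopaminergic libraries the gene stood 52nd to 61st of all rows by FPKM, and in whole midbrain 657th to 910th.

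Slc18a2, the vesicular monoamine transporter gene (plus strand, chr19:59260878-59296012), had 43.2, 51.0, 37.9, 41.2 and 38.4 FPKM in whole midbrain libraries 1 to 5 and 243, 227, 232 and 221 FPKM in dopaminergic libraries 1 to 4. Its groups did not overlap, and the highest whole midbrain value came from library 2. The means were 42.3 ± 5.28 (SD, n = 5) and 231 ± 8.96 (SD, n = 4) FPKM, a log2 difference of 2.43 with an SE of 0.10, a 95 percent interval of 2.21 to 2.64 and a limma adjusted p of 1.38e-08. It was the 120th largest log2 difference. The gene shares 111 exonic bases with the antisense transcript Gm29261, and how strand was handled is not stated, so reads from that stretch could belong to either.

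Slc10a4, the orphan carrier of monoamine and acetylcholine vesicles (plus strand, chr5:73006904-73012955), had 20.2, 22.5, 15.1, 17.4 and 16.0 FPKM in whole midbrain libraries 1 to 5 and 244, 229, 280 and 262 FPKM in dopaminergic libraries 1 to 4. Every dopaminergic library was above every whole midbrain library. The means were 18.3 ± 3.06 (SD, n = 5) and 254 ± 22.3 (SD, n = 4) FPKM, a log2 difference of 3.74 with an SE of 0.12, a 95 percent interval of 3.47 to 4.01 and a limma adjusted p of 4.25e-09. Its log2 difference was the 14th largest, well ahead of that of Slc18a2.

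Slc29a4, the plasma membrane monoamine transporter gene (plus strand, chr5:142702101-142722490), had 6.77, 4.06, 6.24, 5.71 and 6.55 FPKM in whole midbrain libraries 1 to 5 and 5.34, 4.95, 7.43 and 5.74 FPKM in dopaminergic libraries 1 to 4. The groups overlapped almost completely, with means of 5.87 ± 1.09 (SD, n = 5) and 5.86 ± 1.09 (SD, n = 4) FPKM. The difference did not pass the test (limma adjusted p = 0.986). Its 95 percent interval ran from -0.32 to 0.33 on the log2 scale, or from 0.800-fold to 1.26-fold of FPKM + 1. When FPKM were rescaled to the same sum in each library (TPM), the log2 difference of Slc29a4 was -0.60 and passed (limma adjusted p = 0.0260). That scaling lowered the median of all genes to -0.55.

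Slc18b1, the vesicular polyamine transporter gene (plus strand, chr10:23796986-23827968), had 5.39, 2.90, 4.74, 5.0 and 4.62 FPKM in whole midbrain libraries 1 to 5 and 6.01, 3.44, 3.95 and 4.39 FPKM in dopaminergic libraries 1 to 4. The lowest value of either group was that of whole midbrain library 2, and the highest that of dopaminergic library 1. The means were 4.53 ± 0.957 (SD, n = 5) and 4.45 ± 1.11 (SD, n = 4) FPKM, and the log2 difference of -0.02 did not pass (limma adjusted p = 0.909). Its 95 percent interval ran from -0.40 to 0.35, or from 0.758-fold to 1.28-fold. With TPM its log2 difference was -0.62 and passed (limma adjusted p = 0.0401).

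Slc22a3, the gene of organic cation transporter 3 (minus strand, chr17:12419974-12507704), had 1.04, 1.11, 1.21, 0.793 and 1.10 FPKM in whole midbrain libraries 1 to 5. It had 0.190, 0.328, 0.258 and 0.736 FPKM in dopaminergic libraries 1 to 4. The groups did not overlap, but dopaminergic library 4 lay just under whole midbrain library 4. Such a gap in this direction was seen for 31.8 percent of the genes tested. The means were 1.05 ± 0.157 (SD, n = 5) and 0.378 ± 0.245 (SD, n = 4) FPKM, a log2 difference of -0.59. An exact permutation test over the 9 libraries, two-sided, gave p = 0.0159, the smallest that 126 splits allow. With no filter on low values, limma gave an adjusted p of 0.00165. At the rough depths above, the 4 dopaminergic values rest on about 32, 54, 56 and 160 reads. The summed level of 7 oligodendrocyte markers in the same 4 libraries was 157, 226, 176 and 268 FPKM, against 2760 to 3263 in whole midbrain. That of 8 astrocyte markers was 173, 196, 191 and 203 FPKM, against 1160 to 1418. Dopaminergic library 4 was the highest of its group in all 3 measures. For microglia markers library 2 was the highest instead, with a sum of 9.311 FPKM against 8.061 in library 4. Library 2 also led for markers of vessel cells (3.661 against 3.48) and of ependymal and choroid plexus cells (4.585 against 4.049). The part of glial RNA in the level of Slc22a3 was not tested.

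**Figure D2:**
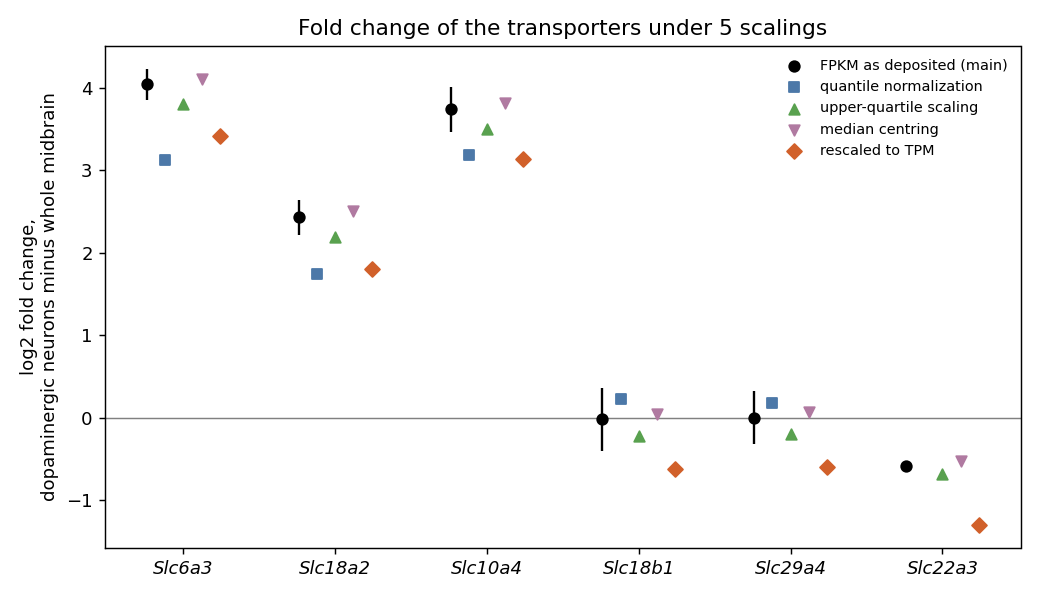
Log2 difference, dopaminergic neurons minus whole midbrain, of each transporter without further scaling and under 4 other scalings, on a linear axis. Bars are 95 percent limma intervals and belong to the unscaled values. Slc6a3, Slc10a4 and Slc18a2 stay above 1.7 at every scaling, Slc22a3 stays below 0 at each scaling shown for it, and Slc18b1 and Slc29a4 move across 0.

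The scalings moved the median of all genes, from 0.04 without scaling to -0.16 with the upper quartile, 0.11 with median centring or quantile normalization, and -0.55 with TPM. Relative to that median, Slc6a3 stood 4.0 higher on the log2 scale without scaling, 3.96 with the upper quartile or TPM and 3.01 with quantile normalization. Slc10a4 stood between 3.08 and 3.69 above it and Slc18a2 between 1.64 and 2.39. Slc29a4 lay between -0.05 and 0.07 of the median, and Slc18b1 between -0.07 and 0.13. The passing differences of Slc29a4 and Slc18b1 with TPM were thus close to the shift of all genes.

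Promoter sequences are shown for the 3 genes that rose together and, beside them, for Slc29a4, whose level was alike in both groups. They are 250 bases from the RefSeq promoter table (GRCm38.p6, the mm10 assembly), 5′ to 3′ on the strand of the gene, and each ends directly before the start of the gene's span in the deposited table. All 6 symbols matched an entry. The outermost RefSeq start lies 9623 bases further upstream for Slc29a4, 619 for Slc6a3 and 127 for Slc18b1, so these windows stand for 1 start of several. For the other 3 genes it is the start used. Capitals mark the GC box GGGCGG and its reverse complement CCGCCC, where matches may overlap.
Slc6a3 promoter, chr13:73536497-73536746, plus strand: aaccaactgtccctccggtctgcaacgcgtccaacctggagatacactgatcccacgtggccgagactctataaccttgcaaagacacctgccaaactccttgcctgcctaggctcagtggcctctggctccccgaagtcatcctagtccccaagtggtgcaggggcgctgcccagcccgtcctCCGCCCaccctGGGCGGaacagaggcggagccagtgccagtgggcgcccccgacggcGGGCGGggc
Slc10a4 promoter, chr5:73006654-73006903, plus strand: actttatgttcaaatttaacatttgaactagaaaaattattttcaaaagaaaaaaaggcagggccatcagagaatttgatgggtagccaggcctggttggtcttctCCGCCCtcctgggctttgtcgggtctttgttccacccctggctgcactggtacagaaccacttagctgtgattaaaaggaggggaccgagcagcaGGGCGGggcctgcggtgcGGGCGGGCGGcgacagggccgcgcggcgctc
Slc18a2 promoter, chr19:59260628-59260877, plus strand: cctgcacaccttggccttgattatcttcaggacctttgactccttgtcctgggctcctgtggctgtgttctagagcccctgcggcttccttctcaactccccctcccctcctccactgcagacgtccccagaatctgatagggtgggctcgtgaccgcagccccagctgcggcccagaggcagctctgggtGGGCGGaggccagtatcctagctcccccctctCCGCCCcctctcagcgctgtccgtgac
Slc29a4 promoter, chr5:142701851-142702100, plus strand: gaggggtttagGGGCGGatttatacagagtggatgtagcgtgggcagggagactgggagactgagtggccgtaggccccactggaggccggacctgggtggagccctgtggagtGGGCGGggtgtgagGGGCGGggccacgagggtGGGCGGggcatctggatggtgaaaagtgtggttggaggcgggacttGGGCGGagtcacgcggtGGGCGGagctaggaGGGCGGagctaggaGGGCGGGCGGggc
The Slc29a4 promoter held 9 GC boxes, that of Slc10a4 4, that of Slc6a3 3 and that of Slc18a2 2. Slc18b1 had 2 and Slc22a3 had 0, and 32.7 percent of 32851 mouse promoters of the same length hold at least 1. Bases G and C made up 68.8 percent of the Slc29a4 window, 66.0 percent for Slc6a3, 64.0 percent for Slc18a2 and 54.4 percent for Slc10a4, with a median of 52.4 percent over all promoters. Searched on both strands, AAAGGTCA (a site of NR4A receptors), TAATCC (a bicoid-class site), TGTTTAC (a forkhead site) and TAATTA (a homeodomain core) were in none of the 6 windows. They are in 1.34, 6.25, 3.17 and 4.84 percent of all promoters. The GC box was added to the search after these 4 had been looked for. Matches describe letters in a window and nothing more.

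FPKM are scaled per length, so levels were set side by side within a library. Whether the amplification of cDNA or the gene models shift levels between genes was not tested. In whole midbrain the order was Slc6a3, Slc18a2, Slc10a4, Slc29a4, Slc18b1 and Slc22a3. The ranges of Slc29a4 and Slc18b1 overlapped, and no other neighbours did. In the dopaminergic libraries Slc10a4 came before Slc18a2. It was above Slc18a2 in 4 of 4 libraries, though their ranges overlapped, as did those of Slc29a4 and Slc18b1. Whole midbrain held 6.01 percent of the dopaminergic level of Slc6a3, 7.19 percent of that of Slc10a4 and 18.3 percent of that of Slc18a2. The same share was 2.91 percent for Th, which makes the dopamine precursor, and 7.43 percent for Ddc, which turns that precursor into dopamine.

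Ratios of 2 transporters within a library do not change when the whole library is multiplied by 1 factor, as TPM and upper-quartile scaling do. The Slc6a3 to Slc18a2 ratio was 1.79, 1.39, 1.79, 1.80 and 1.68 in whole midbrain libraries 1 to 5 and 4.78, 4.95, 5.37 and 5.38 in dopaminergic libraries 1 to 4. In FPKM, the surface transporter gene thus exceeded the vesicular one in all 9 libraries, and by more in each dopaminergic library. The mean log2 ratio differed by 1.60 between the groups (exact permutation p = 0.0159, two-sided, 0.0198 after Benjamini-Hochberg adjustment over 15 pairs).

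The Slc18a2 to Slc10a4 ratio was 2.13, 2.26, 2.50, 2.36 and 2.39 in whole midbrain and 0.993, 0.996, 0.829 and 0.846 in the dopaminergic libraries. Slc18a2 was the higher of these vesicular carriers in all 5 whole midbrain libraries and the lower, by a small margin, in all 4 dopaminergic ones. The log2 ratio differed by -1.35 (exact permutation p = 0.0159, adjusted 0.0198). Serotonergic neurons also use Slc18a2, and their 5 markers (Tph2, Slc6a4, Fev, Gata3 and Htr1a) summed to 89.2, 120, 58.8, 71.0 and 71.4 FPKM in whole midbrain libraries 1 to 5, against 8.46 to 15.6 in the dopaminergic libraries. Library 2 had the highest serotonergic sum and the highest Slc18a2 level of its group, but also the highest Slc10a4 level, and it stood apart in its FPKM sum. The Slc18a2 to Slc10a4 ratio was highest in library 3, which had the lowest serotonergic sum, and lowest in libraries 1 and 2, which had the highest. Slc10a4 also sits on vesicles of monoamine neurons, so serotonergic RNA could enter both sides of this ratio. The 4 noradrenergic markers, by contrast, summed to at most 2.26 FPKM in any library. The part of these cells in the Slc18a2 level of whole midbrain was not tested.

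The Slc6a3 to Slc10a4 ratio changed far less, from 3.83, 3.14, 4.46, 4.25 and 4.01 in whole midbrain to 4.75, 4.93, 4.45 and 4.55 in the dopaminergic libraries. The groups overlapped by a narrow margin. Quantile normalization, which shifts genes by rank and so can change ratios, placed the rise of Slc10a4 (3.18) just above that of Slc6a3 (3.12), with Slc18a2 at 1.74. The log2 difference of 0.25 passed the adjusted threshold (exact permutation p = 0.0317, adjusted 0.0340), but not always when 1 library was left out. It did not pass without whole midbrain library 1, 2, 4 or 5 or dopaminergic library 1, 2 or 4, where the adjusted p was 0.0612 to 0.0765. The difference itself ran from 0.17 to 0.30 without 1 library. Leaving out 1 library raises the smallest possible exact permutation p to 0.0286 or 0.0357. A pair above that smallest p then cannot pass the adjusted threshold, so such lost calls also reflect the coarser steps of the test. Of the 15 pairs 14 passed, and 12 of them were at the smallest p that the design allows. The pair that did not pass was Slc18b1 to Slc29a4, with a log2 difference of -0.03 (exact permutation p = 0.841). The Slc18b1 to Slc22a3 ratio also lost its call without whole midbrain library 1, 2, 3 or 5 or dopaminergic library 1, 2 or 3. Its log2 difference of 1.35 ran from 1.0 to 1.66 without 1 library. With a pseudocount of 1 FPKM in place of 0.1 it became 0.56 and did not pass (adjusted exact permutation p = 0.0850). Pairs share genes, so the 15 ratios are not independent.

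**Figure D3:**
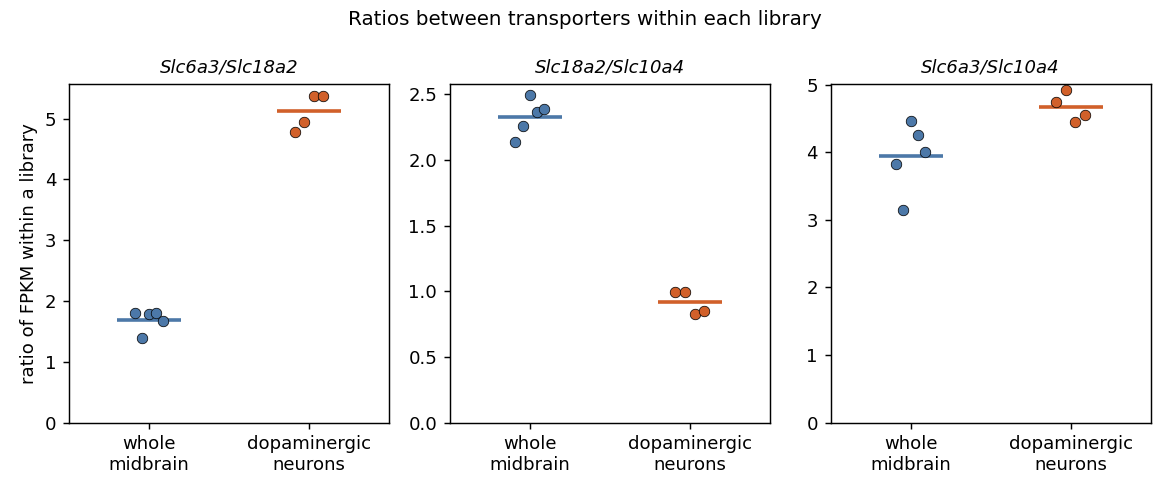
Ratios of transporter FPKM within each library for 3 pairs, on linear axes from 0, with 1 point per library for whole midbrain (n = 5) and dopaminergic neurons (n = 4) and a bar at each group mean. The Slc6a3 to Slc18a2 ratio lies between 1.39 and 1.80 in whole midbrain and between 4.78 and 5.38 in the dopaminergic libraries.

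Among 10 plasma membrane carriers of monoamines and organic cations, 5 could be tested. Slc6a3 rose, 3 fell and Slc29a4 did not pass, with a median log2 difference of -1.15 against 0.04 for all genes, of which 38.3 percent rose and 36.0 percent fell. The serotonin transporter gene Slc6a4 fell from 32.0 ± 7.71 (SD, n = 5) to 2.67 ± 1.09 (SD, n = 4) FPKM, a log2 difference of -3.19 (limma adjusted p = 7.0e-07). Slc22a4 and Slc22a5, carriers of ergothioneine and carnitine, fell by 1.47 and 1.15 on that scale. The noradrenaline transporter gene Slc6a2 had a mean of 0.332 FPKM in whole midbrain and 0.0317 FPKM in the dopaminergic libraries, too low to be tested. Slc22a2 was likewise at 0.347 and 0.0248 FPKM. Among the surface carriers of dopamine in the dopaminergic libraries, Slc6a3 was thus followed by Slc29a4, with a Slc6a3 to Slc29a4 ratio of 200 (geometric mean), against 12.1 in whole midbrain.

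Of 14 vesicular carriers of transmitters and vesicle proteins of the SV2 family, 12 could be tested, 3 rose and 6 fell, with a median log2 difference of -0.81. Beside this, 38.3 percent of all genes tested rose and 36.0 percent fell. The number that fell ran from 3 with a minimum mean of 5 FPKM to 9 with TPM. The third to rise beside Slc18a2 and Slc10a4 was Sv2c, an SV2 protein enriched in the basal ganglia, from 22.0 ± 3.98 (SD, n = 5) to 87.4 ± 4.11 (SD, n = 4) FPKM (log2 difference 1.96, limma adjusted p = 3.3e-07). Slc17a7, a vesicular glutamate transporter gene, fell by 2.14 on the log2 scale and its relative Slc17a6 by 2.06. The GABA carrier gene Slc32a1 fell by 1.87, and the acetylcholine carrier gene Slc18a3 fell by 1.26. Slc18a1, the close relative of Slc18a2 found mainly in endocrine cells, had 0.367 ± 0.167 (SD, n = 5) and 0.409 ± 0.148 (SD, n = 4) FPKM and was too low to be tested.

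The vesicular proton pump, a complex that drives loading by Slc18a2, was represented by 25 subunit and accessory genes. Of the 19 tested, 11 rose and 4 fell, with a median log2 difference of 0.69. The shares over all genes tested were 38.3 percent higher and 36.0 percent lower. The rise of Atp6v1g1 was the largest, from 56.6 ± 5.42 (SD, n = 5) to 341 ± 11.3 (SD, n = 4) FPKM (log2 difference 2.57, limma adjusted p = 6.2e-09). Atp6v0c and Atp6v1f rose by 2.28 and 2.06 on the log2 scale, while Tcirg1 and Atp6v0a2, which encode forms of the a subunit, fell by 1.93 and 1.27. The split depended on the scaling, with 5 higher and 7 lower after quantile normalization and 7 higher and 8 lower with TPM.

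Of 18 proteins reported to bind or regulate the dopamine transporter or the vesicular monoamine transporter, 14 genes rose and 2 fell, with a median log2 difference of 0.77. Among all genes tested 38.3 percent rose and 36.0 percent fell. With quantile normalization 8 were higher, and with TPM 8 were higher and 5 lower. The dopamine autoreceptor gene Drd2 rose from 11.5 ± 1.93 (SD, n = 5) to 233 ± 25.5 (SD, n = 4) FPKM. Rit2, a neuronal GTPase gene, rose by 1.83 on the log2 scale. Gpr37, a receptor gene of oligodendrocytes and some neurons, fell from 26 ± 7.64 (SD, n = 5) to 2.62 ± 0.649 (SD, n = 4) FPKM, and Camk2a, a kinase gene of forebrain neurons, fell by 1.0 on the log2 scale.

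Within their own families the 3 transporters that rose stood among genes that mostly fell or did not pass. Over all genes tested 38.3 percent rose, so most genes fell or did not pass there too. In the SLC10 and SLC18 families only 3 genes each could be tested. In the SLC6 family of sodium-coupled carriers, 15 of 19 genes could be tested, 2 rose and 12 fell. The other to rise was Slc6a18, a kidney amino acid carrier gene, from 5.0 ± 0.483 (SD, n = 5) to 6.35 ± 0.265 (SD, n = 4) FPKM, a log2 difference of 0.30 (limma adjusted p = 0.0062) that did not pass with the upper quartile or TPM. The glial GABA carrier gene Slc6a11 fell by 3.50 on the log2 scale. In the SLC18 family, Slc18a2 rose, Slc18a3 fell and Slc18b1 did not pass. In the SLC10 family, of 3 genes tested, Slc10a4 rose and Slc10a7 fell by 0.26 (limma adjusted p = 0.0488). Of 7 tested SLC22 genes 6 fell, and the steepest fall was that of Slc22a8, an organic anion carrier gene, by 2.95. Of 4 SLC29 genes 2 fell, Slc29a3 by 1.28 and Slc29a2 by 0.51.

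**Figure D4:**
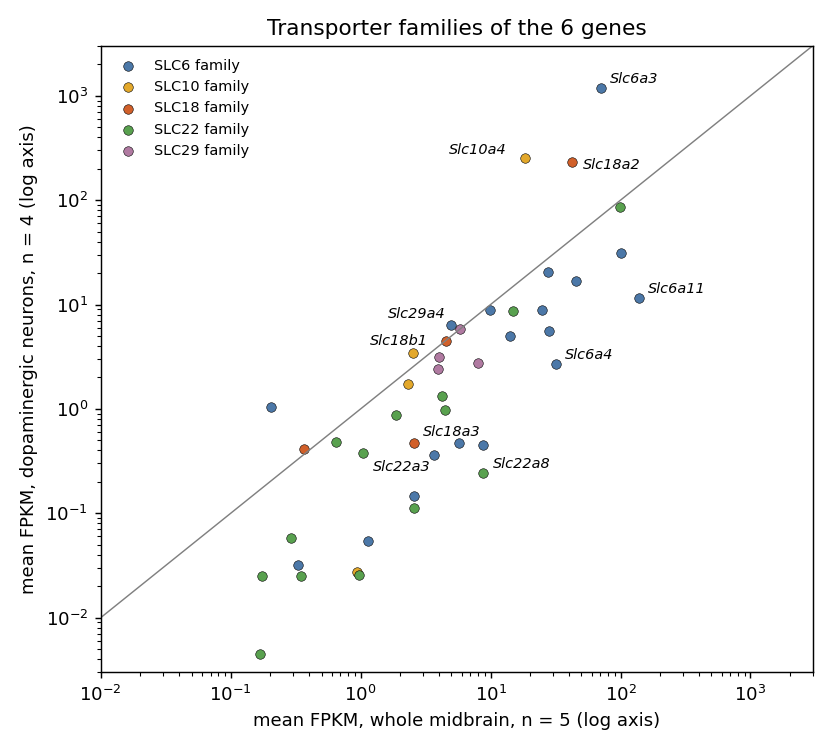
Mean FPKM in dopaminergic neurons (n = 4) against mean FPKM in whole midbrain (n = 5) for genes of 5 transporter families, both on log axes, with the line of equal levels. Only genes above 0 in both groups and above 0.1 FPKM in at least 1 are plotted. Slc6a3, Slc10a4 and Slc18a2 lie far above the line, Slc29a4 and Slc18b1 on it and most other genes below it.

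The genes whose profile over the 9 libraries lay nearest to each transporter were found by the root mean square difference of centred log2 values. This describes 9 libraries that fall into 2 groups, so the difference between the groups enters every value. Nearest to Slc6a3 were Sncg, En1 and Fam210b, at 0.122, 0.123 and 0.131. Nearest to Slc10a4 were Sult5a1, Sncg and Chrna6, at 0.119, 0.132 and 0.138. Nearest to Slc18a2 were Ankrd34b, Etv5 and Hsbp1, at 0.0757, 0.0867 and 0.0920. Sncg encodes gamma-synuclein, En1 a homeodomain factor and Chrna6 a nicotinic receptor subunit, and Sncg was the gene that appeared for both Slc6a3 and Slc10a4. Slc18b1 was nearest to Zfp655, Fig4 and Fgd4, Slc29a4 to Sirt2, Mtss1l and Frmd4b, and Slc22a3 to Agpat3, Mtmr10 and Mgll.

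The spread between libraries of a group differed among the transporters. In the dopaminergic libraries the SD of log2 values was 0.063 for Slc6a3, 0.055 for Slc18a2 and 0.127 for Slc10a4, with a median of 0.124 over all genes. It was 0.281 for Slc18b1, 0.219 for Slc29a4 and 0.241 for Slc22a3. In whole midbrain the SD ran from 0.103 for Slc6a3 to 0.279 for Slc18b1, with a median gene of 0.197. The 3 transporters below 10 FPKM were thus measured with more scatter in the dopaminergic libraries than the 3 above 200 FPKM.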

How the data were processed

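The deposited FPKM values were made by the authors with TopHat2 2.0.8 and Cufflinks 2.1.1 on mm10, per the submitters' processing notes. Neither the annotation, the options nor how strand was handled is stated in the sources at hand. Per the labels' protocols, cDNA was amplified from nanogram amounts of RNA and read single-end. Values of whole midbrain are whole multiples of 0.0001 divided by 364 to 404, a form that weighted means can have. Whether they are weighted means was not tested. Values of dopaminergic neurons are whole multiples of 0.0001 itself. This difference coincides with the groups and cannot be told apart from them.

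The 2 groups were compared with limma 3.58.1 (R 4.3.3) on log2(FPKM + 1), two-sided, with a mean-variance trend, over the 13106 genes that reached a mean of 1 FPKM, with Benjamini-Hochberg adjustment and a threshold of 0.05. The fit was tested on simulated data. A fold change on this scale understates changes of low genes. Folds between means are plain FPKM ratios. Slc22a3 lay under the filter and was tested by exact permutation over 126 splits. Ratios within libraries used a pseudocount of 0.1 FPKM. Depth was estimated from single-exon genes with a fragment of 200 bases assumed. Only 2 genes agreed in each library, and the largest depth was taken among ties, so read numbers are rough. Genes named from lists were taken from the 4 largest passing changes and up to 2 against the majority, some of which are not reported here, and genes named as not passing or too low to be tested were chosen after their values were seen. Nearest genes came from 8917 candidates with at least 5 FPKM in the higher group. Python 3.11.15, SciPy 1.17.1 and matplotlib 3.10.9 were used for summaries and figures. Alternatives were other pseudocounts, filters and scalings, weighted libraries, no trend, leaving out each library and a replicate block. The members and gene lists were chosen with earlier results of these data known.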

Additional observations from a re-analysis of the deposited data

Results flagged for a closer look

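Of 42 groups of levels and ratios checked, 6 had 1 library far from the others (gap over range above 0.710 for 5 libraries or 0.829 for 4). Chance flags about 1 in 20, and the ratios share genes. Whole midbrain library 2 had the highest ratio of its group for Slc6a3 to Slc18b1 (23.7), Slc18a2 to Slc18b1 (17), Slc18a2 to Slc29a4 (12.3), Slc10a4 to Slc18b1 (7.54) and Slc10a4 to Slc29a4 (5.44). It also had the lowest Slc18b1 and Slc29a4 levels of its group, 2.90 and 4.06 FPKM. Dopaminergic library 3 had the lowest Slc10a4 to Slc29a4 ratio of its group, 37.2, and the highest Slc29a4 level, 7.43 FPKM.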

How the results depend on the processing

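Slc6a3, Slc18a2 and Slc10a4 stayed higher and past the threshold under all 21 alternatives, at log2 differences of 3.12 to 4.11, 1.74 to 2.50 and 3.14 to 3.81. Slc22a3 stayed lower under all 15 run, at -1.38 to -0.17, but by a different test. Without the filter limma gave an adjusted p of 0.00165. The other runs used the exact permutation test, not adjusted over genes, with p of 0.0159 to 0.0357. Except with median centring (0.0317), these were the smallest p that the splits allow, which any pair of groups without overlap reaches. Quantile normalization, no trend, library weights, the replicate block and the stricter filters were not run for it, because it lies under the filter. Slc18b1 turned sign with quantile normalization (0.23) and median centring (0.05), passed with TPM (-0.62) and ran from -0.15 to 0.07 without 1 library. With a minimum mean of 5 FPKM it gave no value. Slc29a4 was -0.20 with the upper quartile, -0.10 with library weights and -0.60 with TPM, where it passed, and ran from -0.10 to 0.07 without 1 library. The log2 difference of Slc18b1 to Slc29a4 ran from -0.22 to 0.13 without 1 library, and 12 to 13 pairs passed then against 14. With the fewer splits that remain, only a pair at the smallest possible p can pass. Genes called higher and lower numbered 5014 and 4717, 2248 and 7393 with TPM, and 4699 to 5654 and 4445 to 4974 without 1 library. The filter at 5 FPKM left 2493 lower. Of the genes called, 51.5 percent were higher, against 23.3 percent with TPM, 40.6 percent with the upper quartile and 62.6 percent with a minimum mean of 5 FPKM. Beyond the smaller number of genes tested with that filter, the cause was not tested. Libraries with the same replicate number did not deviate together (r of -0.0498 to 0.019, against -0.0948 to 0.0787 for other combinations). This gives no sign that the numbers pair samples, but it cannot exclude pairing. With the replicate block 4554 genes were higher and 4355 lower, Slc6a3 was at 4.01, Slc18a2 at 2.39, Slc10a4 at 3.70, Slc18b1 at -0.01 and Slc29a4 at 0.04. By Pearson's correlation 2 of the 3 nearest genes were shared for Slc18b1 and Slc29a4 and 0 of 3 for the other 4 transporters. By the rough depth, Slc22a3 rested on 32 to 160 reads in the dopaminergic libraries.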

Other observations

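Genes within 200 kb of the transporters were looked at after the values were seen. Tnrc18, 2.1 kb from Slc29a4, rose from 3.84 ± 0.202 (SD, n = 5) to 62.5 ± 3.16 (SD, n = 4) FPKM, a log2 difference of 3.71 (limma adjusted p = 1.46e-10), beside a Slc29a4 level that was alike in both groups. Clptm1l, 25.3 kb from Slc6a3, rose from 55.4 ± 3.88 (SD, n = 5) to 212 ± 20.9 (SD, n = 4) FPKM (log2 difference 1.91, limma adjusted p = 4.22e-08). The amino acid carrier gene Slc6a19, 102.5 kb from Slc6a3 and too low to be tested, had 0.204 ± 0.0927 (SD, n = 5) and 1.05 ± 0.120 (SD, n = 4) FPKM, with no overlap between the groups.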
